A study of Homo sapiens with 5 samples.

Results

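The genes described here encode 10 chaperones and proteases that keep proteins folded, or remove them, inside mitochondria. They are HSPD1, HSPE1, HSPA9, GRPEL1, DNAJA3, TRAP1, LONP1, CLPP, CLPX and YME1L1, chosen by name. The choice used no cut on a measured value, but earlier results of these data were known when it was made. Of these 10 genes, 9 had a row among the 13638 rows of the table and all 9 were among the 11205 rows tested. DNAJA3, a J-domain partner of the mitochondrial Hsp70, was not analysed here.

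Most mitochondrial proteins are made in the cytosol and enter the matrix unfolded. The Hsp70 HSPA9 pulls them in and folds them with its nucleotide exchange factor GRPEL1 and J-domain partners, and the HSPD1 and HSPE1 chaperonin, a barrel with a lid, encloses and folds many of them further. Proteins that fail to fold, or that are no longer needed, are degraded by ATP-driven proteases, LONP1 and the CLPX-CLPP complex in the matrix and YME1L1 at the inner membrane. Cells raise several of these genes when mitochondrial protein folding is disturbed, which is known as the mitochondrial unfolded protein response.

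The study sequenced ribosome-protected fragments, the pieces of mRNA shielded from nuclease by a bound ribosome, from HAP1 cells, a near-haploid adherent human line derived from a chronic myeloid leukaemia line. There were 2 libraries of wild-type cells and 3 libraries of ZCCHC4 knockout cells. ZCCHC4 is an RNA methyltransferase that the study's title links to an adenosine modification of ribosomal RNA. The labels name neither the allele or the number of clones behind the knockout nor any treatment of the living cells, and cycloheximide, which halts ribosomes, was in the lysis buffer of both genotypes. They also do not say whether libraries of a genotype came from separate cultures, so a p-value here speaks only of how these 5 libraries vary, and that variation may be technical.

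The wild-type libraries held 4887380 and 5302160 counts and the knockout libraries 16940732 to 31557573, so depth went with genotype and these cannot be told apart by design. Levels are given as CPM, counts scaled to a common library size, after trimmed-mean (TMM) scaling, and a fold change is a log2 ratio of knockout over wild type. A gene passed when edgeR's quasi-likelihood test gave an adjusted p under 0.05, which 60% of the tested genes did. ZCCHC4 was counted 93 and 71 times in the wild-type libraries against 105, 55 and 147 times in the deeper knockout libraries, or 16.04 and 13.3 CPM against 3.85, 3.41 and 4.98 CPM (log2 fold change -1.82 ± 0.20 SE). Of 6 haematopoietic marker genes 2 had a row and neither was tested, with a summed level of 0.0339 to 0.373 CPM over the 5 libraries. The epithelial markers summed to 135 to 158 CPM, nearly all KRT18, which did not pass (log2 fold change -0.11), while EPCAM rose by 1.82 from a mean of 1.35 to 4.72 CPM. The mesenchymal markers summed to 303 and 323 CPM in wild type and 573 to 617 CPM in the knockout, where VIM rose by 1.95, FN1 fell by 1.26 and COL1A1 fell by 0.83 on the log2 scale. The part of such differences in the results for the mitochondrial genes was not tested. A footprint count rises with the amount of an mRNA and with the ribosomes on each copy, and these were not separated. In a lysate of a whole culture, fewer cells with a high level and a lower level in every cell cannot be told apart.

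Of the 9 genes, 4 were higher in the knockout (HSPE1, HSPD1, GRPEL1 and CLPX), 2 were lower (LONP1 and HSPA9) and 3 did not pass (TRAP1, CLPP and YME1L1). Across all tested genes 30.2% were higher and 29.8% lower, so 6 of 9 passing is near the background share. Without knockout replicate 2, all 9 genes passed, 5 higher and 4 lower, where 73.3% of all tested genes passed. Scaled by library totals, 4 of the 9 were higher and 4 lower, TRAP1 and CLPP joining the lower ones, where 21.3% of all tested genes (2391) were higher and 40.7% (4564) lower. At 2-fold or more, HSPE1 and HSPD1 were higher and LONP1 lower, where 10% of all tested genes were higher and 13.1% lower by that much. Knockout and wild-type values were fully apart for 7 of the 9 genes, against 76.4% of all tested genes. The median log2 fold change was 0.14, the value of YME1L1, beside 0.02 for all tested genes, and the range ran from -1.38 for LONP1 to 2.03 for HSPE1. Partners of the same machine did not all move the same way, as the next paragraphs show for each machine in turn.

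HSPD1 encodes the barrel-forming chaperonin Hsp60 and HSPE1 its lid, Hsp10. HSPD1 (ENSG00000144381) lies on chr2:197486586-197500274 of GRCh38, minus strand, with 12 exons, and HSPE1 (ENSG00000115541) on chr2:197499994-197503457, plus strand, with 4 exons. They are arranged head to head. Their RefSeq start sites, at 197500274 and 197500379, are 105 bases apart, and the GENCODE transcripts that were counted overlap by 281 bases at their 5′ ends, outside both coding sequences. The DNA between the RefSeq starts is shown because, by those starts, both genes are read outward from it. By the counted GENCODE transcript, which starts further upstream, it lies in the 5′ untranslated part of the first exon of HSPE1. It is given on the plus strand, HSPE1 to the right, with the E-box CACGTG in capitals:

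Stretch between the RefSeq starts, chr2:197500275-197500378: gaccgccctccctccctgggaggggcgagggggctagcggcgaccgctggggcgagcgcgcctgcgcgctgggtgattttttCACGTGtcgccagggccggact

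RefSeq also lists a second HSPD1 start, at 197499840, and the window before it holds the inverted repeats TTCNNGAA and GAANNTTC, the arrangement that heat shock factor is known to bind. In the counted GENCODE transcript of HSPD1 this stretch lies in the first intron. It is given on the minus strand, with the overlapping repeats in capitals:

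HSPD1 upstream stretch, chr2:197500062-197500090: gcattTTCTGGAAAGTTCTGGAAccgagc

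Wild-type cells gave 2724 and 2716 CPM of HSPD1, and knockout cells 6092, 5330 and 6003 CPM. These levels rest on 14545 and 15794 wild-type counts and on 86046 to 177267 counts in the knockout. Every knockout library lay above both wild-type libraries, which differed from each other by less than any other pair. The group means were 2720 ± 6.24 CPM (SD, n = 2) and 5808 ± 417 CPM (SD, n = 3), a 2.14-fold difference (log2 fold change 1.09 ± 0.07 SE, adjusted p = 2.67e-06 by edgeR).

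HSPE1 was at 141 and 137 CPM in wild type and at 605, 516 and 582 CPM in the knockout, from 733 and 818 counts against 8338 to 17177. The genotypes were far apart, with the lowest knockout library well above the highest wild-type library. The means of 139 ± 3.00 CPM (SD, n = 2) and 568 ± 46.0 CPM (SD, n = 3) differed 4.09-fold (log2 fold change 2.03 ± 0.09 SE, adjusted p = 4.26e-07 by edgeR). Ranked by log2 fold change, HSPE1 stood at the 97.7th percentile of all tested genes and HSPD1 at the 91.1st.

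The lid gene therefore moved more than the barrel gene. Within each library, where no scaling enters, the HSPE1 to HSPD1 count ratio was 0.0518 and 0.0504 for wild type against 0.0994, 0.0969 and 0.0969 for the knockout. Per coding length the ratio went from 0.291 and 0.283 to 0.558, 0.544 and 0.544. All knockout ratios were higher, by 0.94 on the log2 scale (two-sided exact permutation p = 0.1, adjusted p = 0.133 over 4 ratios). With 2 against 3 libraries there are 10 arrangements and 0.1 is the smallest p this test can give, so no ratio could pass.

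GENCODE lists 17 pseudogenes named after HSPD1 and 26 named after HSPE1, and how reads that map to several places were counted is not given in the sources used here, so both levels are uncertain to that extent. The readthrough transcript HSPE1-MOB4 had 0, 0, 2, 2 and 4 counts in the 5 libraries. Neither gene flanking the pair was higher in the knockout. COQ10B, a coenzyme Q protein gene beyond HSPD1, had a log2 fold change of -0.10 ± 0.13 SE (adjusted p = 0.532 by edgeR), and MOB4, beyond HSPE1, fell by 1.29 (SE 0.19, adjusted p = 0.000332 by edgeR).

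**Figure D1:**
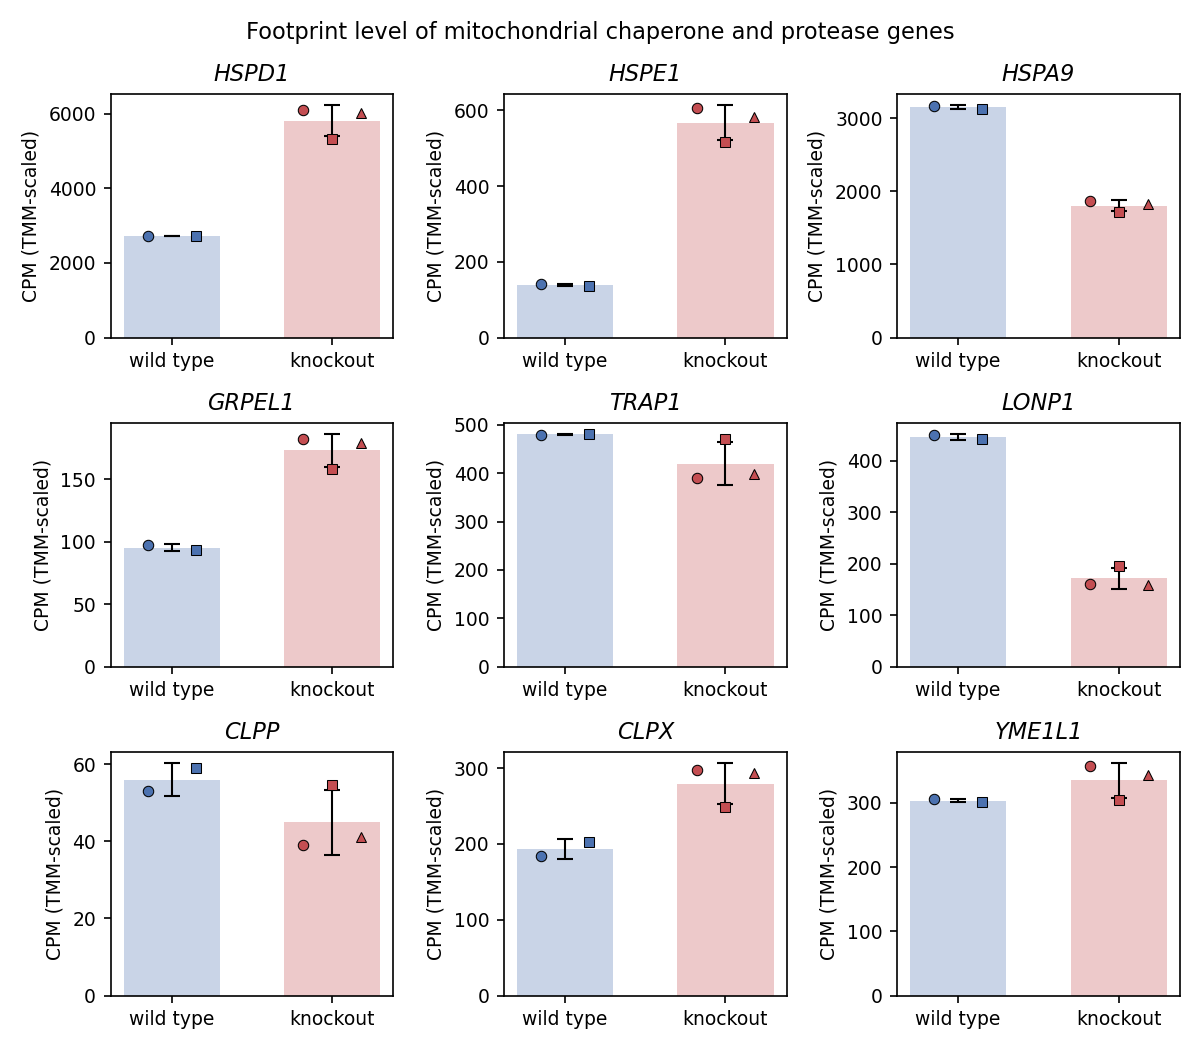
TMM-scaled CPM (vertical axes, each from 0) of the 9 mitochondrial chaperone and protease genes in 2 wild-type and 3 ZCCHC4 knockout libraries. Bars are means, whiskers are SD, and circles, squares and triangles are replicates 1, 2 and 3. HSPE1 rises from 139 to 568 CPM and LONP1 falls from 446 to 172 CPM, while the libraries of YME1L1 and CLPP overlap between genotypes.

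HSPA9 encodes the matrix Hsp70, also called mortalin, on chr5:138555335-138575401, minus strand, with 17 exons. It was at 3168 and 3126 CPM in wild type and 1866, 1719 and 1828 CPM in the knockout. The 3 knockout values were all under the lower wild-type value, from 16746 and 18363 counts against 27754 to 53969. The means of 3147 ± 29.02 CPM (SD, n = 2) and 1804 ± 76.1 CPM (SD, n = 3) made HSPA9 1.74-fold lower in the knockout (log2 fold change -0.80 ± 0.06 SE, adjusted p = 5.33e-06 by edgeR). HSPA9 has 1 pseudogene in GENCODE.

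The RefSeq promoter of HSPA9 also holds an E-box and, beside it, a TTCNNGAA repeat. Both are in capitals in the stretch from 36 bases before the start to 20 bases after its first base, on the minus strand. It is shown because this gene shares motifs with the chaperonin promoter yet moved the other way:

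HSPA9 promoter stretch, chr5:138575381-138575437: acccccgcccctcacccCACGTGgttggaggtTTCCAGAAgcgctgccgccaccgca

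GRPEL1, the exchange factor that lets HSPA9 release its bound protein, lies on chr4:7058906-7068197, minus strand, with 4 exons. It was at 97.3 and 93.4 CPM in wild type and 182, 158 and 179 CPM in the knockout, from 500 and 564 counts against 2555 to 5285. The genotypes did not overlap, and the gene was 1.82-fold higher in the knockout (log2 fold change 0.86 ± 0.09 SE, adjusted p = 5.71e-05 by edgeR).

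GRPEL1 and HSPA9 thus moved in opposite directions. Their count ratio was 0.0307 and 0.0299 for wild type against 0.0978, 0.0921 and 0.0979 for the knockout. The ratio was 3.17-fold higher in the knockout, with no overlap (log2 difference 1.66, two-sided exact permutation p = 0.1, adjusted p = 0.133 over 4 ratios).

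The balance between the chaperonin and Hsp70 shifted as well. HSPD1 and HSPE1 together took 0.313% of the counts in each wild-type library and 0.626%, 0.557% and 0.616% in the knockout. HSPA9 took 0.346% and 0.343% of wild-type counts but 0.174%, 0.164% and 0.171% of knockout counts. The count ratio of HSPD1 to HSPA9 was 0.860 and 0.869 for wild type, where HSPA9 had more counts, and 3.26, 3.10 and 3.28 in the knockout, where HSPD1 had more. The 9 genes together took 0.831% and 0.828% of all wild-type counts against 0.934%, 0.857% and 0.919% of knockout counts.

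TRAP1, the mitochondrial Hsp90, lies on chr16:3658037-3717597, minus strand, with 18 exons. It was at 479 and 480 CPM in wild type and 391, 470 and 398 CPM in the knockout. Knockout replicate 2 lay close to the wild-type libraries, and the others were lower. The gene did not pass (log2 fold change -0.19 ± 0.09 SE, adjusted p = 0.0860 by edgeR). Without knockout replicate 2 the log2 fold change was -0.28 and it passed (adjusted p = 2.35e-10 by edgeR).

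LONP1 is the matrix Lon protease, which degrades damaged matrix proteins and also assists folding. It lies on chr19:5691834-5720290, minus strand, with 18 exons. It was at 450 and 441 CPM in wild type and 160, 196 and 159 CPM in the knockout, from 2364 and 2607 counts against 3157 to 4705. All knockout libraries were far below the wild-type libraries. The means of 446 ± 5.89 CPM (SD, n = 2) and 172 ± 20.6 CPM (SD, n = 3) put the knockout at 38.5% of wild type, 2.60-fold lower (log2 fold change -1.38 ± 0.10 SE, adjusted p = 5.25e-06 by edgeR). LONP1 stood at the 8.83rd percentile of the log2 fold changes of all tested genes and HSPA9 at the 17.3rd.

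Its first RefSeq promoter window holds the E-box 2 times. The counted GENCODE transcript starts further upstream, at 5720290, so the copy nearer to the RefSeq start lies inside that transcript. This copy is shown on the minus strand, for comparison with the rising chaperonin pair:

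LONP1 promoter stretch, chr19:5720173-5720212: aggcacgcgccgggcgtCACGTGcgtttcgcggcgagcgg

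CLPP is the proteolytic barrel of the other soluble matrix protease, on chr19:6361452-6368910, plus strand, with 6 exons. It was at 53.0 and 59.0 CPM in wild type and 39.1, 54.6 and 41.1 CPM in the knockout, from 307 and 316 counts against 881 to 1214. Knockout replicate 2 lay between the wild-type libraries and the other knockout libraries lay below them. The gene did not pass (log2 fold change -0.32 ± 0.15 SE, adjusted p = 0.0939 by edgeR). Without knockout replicate 2 its log2 fold change was -0.48 and it passed (adjusted p = 1.13e-07 by edgeR).

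CLPX, the unfoldase that feeds proteins into CLPP, lies on chr15:65148219-65185342, minus strand, with 14 exons. It was at 184 and 203 CPM in wild type and 297, 248 and 293 CPM in the knockout. Every knockout library was above both wild-type libraries, and the gene was 1.44-fold higher (log2 fold change 0.53 ± 0.10 SE, adjusted p = 0.00139 by edgeR).

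YME1L1, the inner membrane protease facing the intermembrane space, lies on chr10:27110454-27154392, minus strand, with 19 exons and 1 pseudogene in GENCODE. It was at 305 and 302 CPM in wild type and 357, 305 and 343 CPM in the knockout. Knockout replicate 2 lay within the wild-type range, and the gene did not pass (log2 fold change 0.14 ± 0.08 SE, adjusted p = 0.163 by edgeR). Without knockout replicate 2 it passed at a log2 fold change of 0.20 (adjusted p = 8.44e-06 by edgeR). Scaled by library totals instead of TMM, its log2 fold change was -0.077, and that scaling moved the median of all tested genes from 0.02 to -0.20.

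The CLPX to CLPP count ratio was 3.48 and 3.44 for wild type against 7.60, 4.55 and 7.12 for the knockout. All knockout ratios were higher but replicate 2 was well below the others (log2 difference 0.86, two-sided exact permutation p = 0.2, adjusted p = 0.2 over 4 ratios). The LONP1 to CLPP ratio compares the matrix proteases with each other. It was 8.49 and 7.48 for wild type against 4.10, 3.58 and 3.88 for the knockout, 2.07-fold lower (two-sided exact permutation p = 0.1, adjusted p = 0.133 over 4 ratios). The proteases LONP1, CLPP, CLPX and YME1L1 together took 0.108% and 0.110% of wild-type counts against 0.0798%, 0.0766% and 0.0783% of knockout counts.

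**Figure D2:**
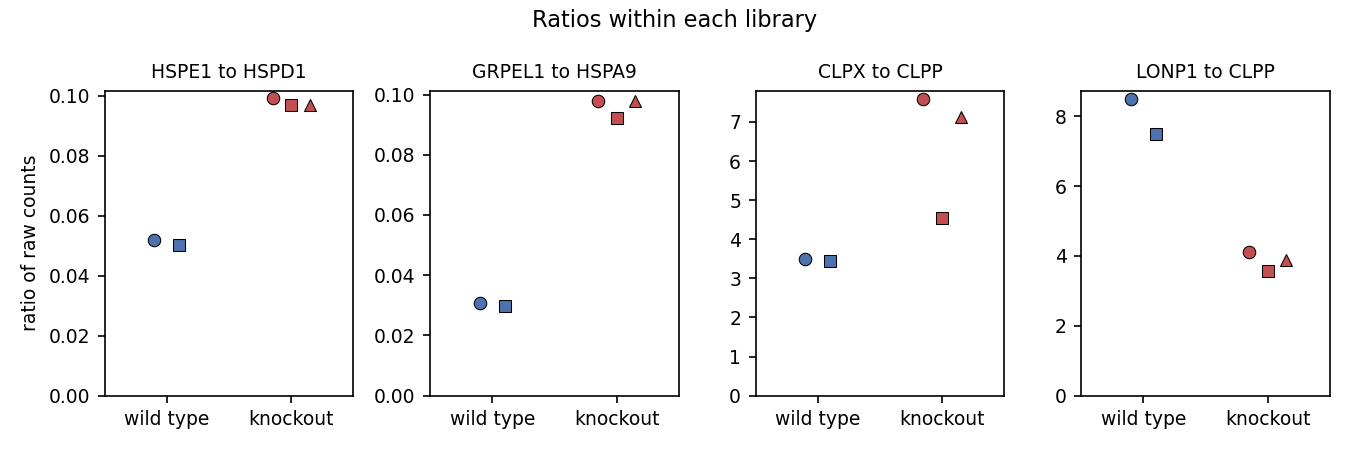
Ratios of raw counts of partner genes within each library (vertical axes, each from 0), for 2 wild-type and 3 knockout libraries; circles, squares and triangles are replicates 1, 2 and 3. The genotypes are apart in each panel, and the CLPX to CLPP ratio of knockout replicate 2, 4.55, lies between the wild-type libraries and the other knockout libraries.

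Levels of different genes were compared per kilobase of coding sequence. In wild type HSPD1 (1582 CPM per kb) and HSPA9 (1545) led, followed by HSPE1 (454), TRAP1 (227), LONP1 (155), GRPEL1 (146), YME1L1 (141), CLPX (102) and CLPP (67.4). In the knockout HSPD1 (3379 CPM per kb) was followed by HSPE1 (1856), HSPA9 (886), GRPEL1 (266), TRAP1 (199), YME1L1 (156), CLPX (147), LONP1 (59.7) and CLPP (54.1). LONP1 thus dropped from the place behind TRAP1 to the one above CLPP, while HSPE1 overtook HSPA9. No test was made of neighbours in this order.

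Of the 16 nearest tested genes on either side of the 9 genes, leaving out the 9 themselves, 2 were higher and 4 lower. Of all tested genes 30.2% were higher and 29.8% lower. The start coordinates of such neighbours lay 10.8 to 699.8 kb from those of the genes they flank. CTNNA1 rose by 0.37 on the log2 scale beside HSPA9, which was lower, and MASTL rose by 1.00 beside YME1L1. MOB4 and PDCD7 were lower, at -1.29 and -0.74, beside HSPE1 and CLPX, which were higher. DUS3L beside LONP1 fell by 0.40, in the same direction as LONP1, and CREBBP beside TRAP1 fell by 0.40.

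**Figure D3:**
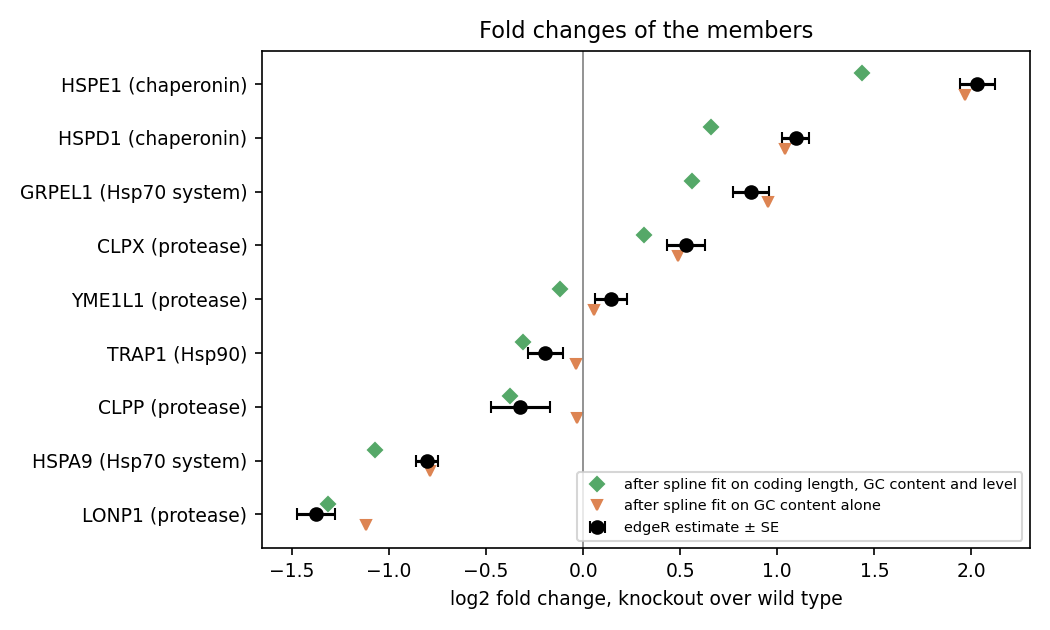
Log2 fold change of knockout over wild type (horizontal axis) for the 9 genes, with edgeR estimates and SE as black points and bars. Green diamonds and orange triangles are the values left after fitting the fold changes of all genes on coding length, GC content and level, or on GC content alone. HSPE1 moves from 2.03 to 1.44 and HSPD1 from 1.09 to 0.66 in the first of these fits, and LONP1 and HSPA9 stay lower in both.

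Several of the genes differed among knockout libraries in a way that followed base composition. Knockout replicate 2 had the lowest knockout level of HSPD1, HSPE1, HSPA9, GRPEL1, CLPX and YME1L1 and the highest of TRAP1, LONP1 and CLPP. Against the mean of the other knockout libraries its log2 difference was -0.20 for HSPE1, at 41.8% GC in the coding sequence, and -0.25 for CLPX, at 43.0%. For the GC-rich genes it was 0.25 for TRAP1 (58.0% GC), 0.29 for LONP1 (62.8%) and 0.44 for CLPP (64.3%). The same held for all tested genes split into 5 equal bins by GC content, where the median of this difference rose from -0.24 in the bin poorest in GC to 0.32 in the richest. GRPEL1, at 53.0% GC, stood apart with -0.19 in a bin whose median was 0.02.

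The central 90 coding bases of the pair poorest in GC and of the pair richest in GC show the contrast. G and C are in capitals:

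YME1L1 coding bases 1030 to 1119: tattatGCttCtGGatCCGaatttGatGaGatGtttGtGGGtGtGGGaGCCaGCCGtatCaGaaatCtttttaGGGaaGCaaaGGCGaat
HSPE1 coding bases 109 to 198: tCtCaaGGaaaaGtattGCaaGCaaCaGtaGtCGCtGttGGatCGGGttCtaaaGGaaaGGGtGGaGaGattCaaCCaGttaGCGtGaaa
LONP1 coding bases 1394 to 1483: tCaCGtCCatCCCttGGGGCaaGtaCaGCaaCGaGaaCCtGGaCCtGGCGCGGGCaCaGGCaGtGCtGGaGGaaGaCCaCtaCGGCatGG
CLPP coding bases 371 to 460: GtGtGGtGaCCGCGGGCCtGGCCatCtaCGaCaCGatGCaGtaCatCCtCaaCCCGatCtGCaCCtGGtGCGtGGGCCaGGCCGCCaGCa

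In these stretches G and C make up 43.3% of YME1L1, 44.4% of HSPE1, 62.2% of LONP1 and 65.6% of CLPP. Between the genotypes the trend with GC content was smaller. The median log2 fold change over the same bins went from 0.08 in the poorest to -0.13 in the richest, and GC content alone accounted for 1.19% of the variance of the fold changes of 11158 genes. HSPE1 and YME1L1, with nearly equal GC content, had log2 fold changes of 2.03 and 0.14, and LONP1 and CLPP -1.38 and -0.32. After the fit on GC alone TRAP1 and CLPP were both at -0.03, HSPE1 at 1.97 and LONP1 at -1.12.

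Coding length, GC content and level together accounted for 16.1% of that variance, and short genes were higher in the knockout, with medians from 0.15 in the shortest of 5 bins to -0.22 in the longest. HSPE1, with 306 coding bases, is in the shortest bin and LONP1, with 2877, in the longest. After that fit HSPE1 was at 1.44, HSPD1 at 0.66, GRPEL1 at 0.56, CLPX at 0.31, YME1L1 at -0.12, TRAP1 at -0.31, CLPP at -0.37, HSPA9 at -1.07 and LONP1 at -1.31. The 6 genes that passed kept their direction. The part of length, GC content and level in each gene's difference was not tested further.

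**Figure D4:**
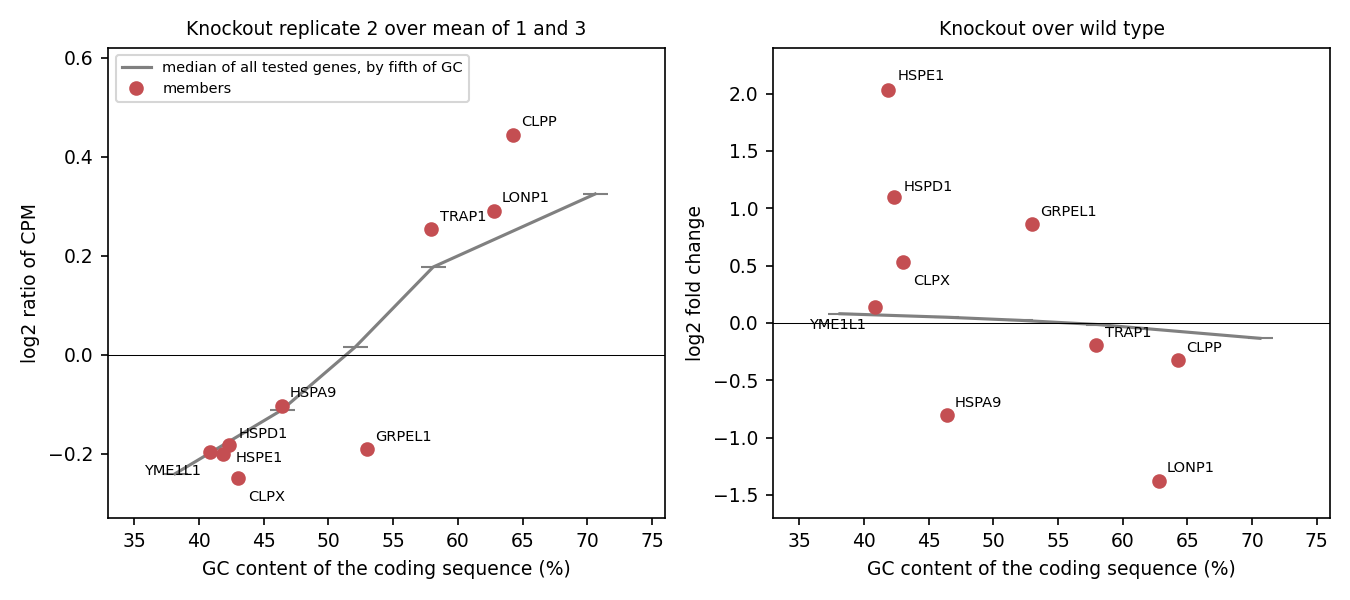
GC content of the coding sequence (horizontal axes, %) against the log2 ratio of knockout replicate 2 to the mean of knockout replicates 1 and 3 (left) and against the log2 fold change of knockout over wild type (right). Red points are the 9 genes and the grey line joins the medians of all tested genes in 5 bins of GC content, which rise from -0.24 to 0.32 on the left and go from 0.08 to -0.13 on the right.

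The promoter motifs were counted on both strands in the RefSeq windows (GRCh38.p14) from 250 bases before to 50 after each start, and were chosen after the sequences had been seen. Windows were found for 7 of the 10 genes. CACGTG, present in 7.26% of 35116 promoters, was in the windows of HSPD1, HSPE1, HSPA9 and LONP1. Of these the first pair were higher and the others lower in the knockout. The HSPD1 and HSPE1 windows overlap and hold the same copy of it, so these genes do not count separately. HSPD1 and LONP1 each had a second window, while the percentages are per window. TTCNNGAA (7.74% of promoters) was in those of HSPD1 and HSPA9, and GAANNTTC (6.77%) in that of HSPD1. TGACGTCA, the cAMP response element (1.85%), was in that of TRAP1, and CCAAT (34.6%) in those of CLPX and DNAJA3. TGATGNAA, the composite element that ATF4 and CHOP are known to bind (3.62%), was in none. The genes with CACGTG and those with TTCNNGAA each included higher and lower genes. A match of letters is no evidence of a bound factor, and a role of these motifs was not tested.

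Other genes of the same compartment were read from the same fit. For this list and those that follow, the shares of all tested genes were 30.2% higher and 29.8% lower. Of 10 other mitochondrial chaperones, import motor subunits and assembly factors, 1 was higher and 5 lower, with a median of -0.29. GRPEL2, the second exchange factor for HSPA9, rose by 0.46 on the log2 scale (adjusted p = 0.00281 by edgeR, 0.0586 with library totals). TIMM44, which tethers HSPA9 to the import channel, fell by 0.62, and BCS1L, an assembly factor of respiratory complex III, fell by 0.77. Both exchange factors were thus higher, and HSPA9 and its tether lower. The other lower genes were DNAJC11, DNAJC19 and ATPAF2, with log2 fold changes of -0.26, -0.35 and -0.77; these and the further genes of the following lists stand outside the rule of 3 genes of smallest adjusted p per list. When either wild-type library was left out, fewer of these genes were called lower, as among all tested genes. With library totals none was higher and 6 were lower, where 21.3% of all tested genes were higher and 40.7% lower.

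Of 14 other mitochondrial proteases and processing peptidases, 5 were higher and 2 lower, with a median of 0.07. AFG3L2, the inner membrane protease facing the matrix, went from 113 and 121 CPM to 207, 202 and 207 CPM (log2 fold change 0.82). PMPCA, a subunit of the peptidase that trims import signals, rose by 0.89, and its partner PMPCB had a log2 fold change of -0.19 (adjusted p = 0.0549 by edgeR). IMMP2L, an inner membrane peptidase, fell by 1.90. SPG7, which forms a protease with AFG3L2, LACTB and HTRA2 were also higher, at 0.85, 0.71 and 0.50 on the log2 scale, and METAP1D was lower, at -0.52 (adjusted p = 0.0478 by edgeR). The lower proteases numbered 1 without knockout replicate 3, where the lower genes among all tested went from 3341 to 2976. Fewer proteases were also called lower without wild-type replicate 1, as among all tested genes. Without knockout replicate 2, 6 proteases were higher and 4 lower, where 73.3% of all tested genes passed. With library totals 4 proteases were higher and 6 lower, where 21.3% of all tested genes were higher and 40.7% lower.

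Among 4 scaffolds and partners of the inner membrane proteases, 2 were higher and 1 lower, with a median of 0.24. PHB, a prohibitin, rose by 0.89. STOML2, the scaffold that holds YME1L1, fell by 0.27, and C2orf47, a partner of AFG3L2, rose by 0.28. STOML2 no longer passed when wild-type replicate 1 (adjusted p = 0.178), wild-type replicate 2 (0.0693) or knockout replicate 3 (0.0658) was left out, all by edgeR. That of C2orf47 was lost when any library except knockout replicate 2 was left out (adjusted p from 0.0633 to 0.186 by edgeR), with upper-quartile scaling (0.0862), with DESeq2 (0.0858), and with library totals, where the log2 fold change was 0.058 (0.616).

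Of 22 import channel subunits and intermembrane space carriers, 15 were higher and 2 lower, with a median of 0.50. Of all tested genes 30.2% were higher and 29.8% lower. TIMM8A, a small carrier of the intermembrane space, rose by 1.69, TIMM21, of the inner membrane channel, by 1.19 and TOMM22, an outer membrane receptor, by 0.83. Of 23 reference genes of mitochondrial metabolism and structure, 12 were higher and 3 lower, with a median of 0.36. ATP5A1, a subunit of ATP synthase, rose by 0.68, SLC25A5, an ADP and ATP carrier, by 0.80 and VDAC1, an outer membrane pore, by 0.71. The lower genes were TIMM17B (-0.51) and TIMM9 (-0.79) in the first list and OPA1 (-0.49), HADHA (-0.45) and UQCRC2 (-0.43) in the other. With library totals 12 genes of the first list were higher and 4 lower, and 10 and 7 of the other. Of all tested genes 21.3% were higher and 40.7% lower with that scaling. Without knockout replicate 2, 17 of the first list were higher and 4 lower, and 15 and 7 of the other. There 73.3% of all tested genes passed. When either wild-type library was left out, fewer genes of both lists were called higher, as among all tested genes. Fewer genes of the first list were also called lower without wild-type replicate 1. HSPA9 and LONP1 were thus lower beside many mitochondrial genes that were higher in the main fit. Once length, GC and level were adjusted for, the median was 0.24 in the first list and 0.07 in the other. The median of all tested genes was then -0.0028, with HSPA9 at -1.07 and LONP1 at -1.31. No gene was called in that adjustment, which has no test, and its level term was averaged over the libraries of both genotypes. The part of length, GC content and level in the rise of these lists was not tested.

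Among 9 regulators linked to the mitochondrial unfolded protein response, 2 were higher and 4 lower, with a median of -0.05. ATF5, a transcription factor of this response, was at 49.9 and 50.4 CPM in wild type and 10.4, 13.4 and 10.5 CPM in the knockout (log2 fold change -2.14 ± 0.13 SE, adjusted p = 2.69e-06 by edgeR). CEBPB, a bZIP transcription factor, fell by 2.62, and UBL5, a ubiquitin-like protein, rose by 0.77. The other higher gene was KIAA0141 (log2 fold change 1.12). HSF1, the heat shock transcription factor, fell by 0.52 (adjusted p = 0.00605 by edgeR), and it no longer passed when wild-type replicate 1 (0.0549) or 2 (0.0514) was left out. DDIT3, which encodes CHOP, had a log2 fold change of -0.88 ± 0.34 SE (adjusted p = 0.0494 by edgeR), and no longer passed when wild-type replicate 1 (log2 fold change -0.48, adjusted p = 0.468), wild-type replicate 2 (-1.19, 0.0562) or knockout replicate 3 (-0.79, 0.0923) was left out. When either wild-type library was left out, fewer regulators were called lower, as among all tested genes. ATF4 was not analysed here.

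All 9 tested outputs of the integrated stress response, the program driven by ATF4, were lower, with a median of -1.23. ASNS, asparagine synthetase, fell by 2.11. TRIB3, a pseudokinase, fell by 3.90 and GDF15, a secreted stress factor, fell by 4.25. LONP1 and HSPA9 were lower in the same libraries, as were 29.8% of all tested genes, and a link to these outputs was not tested.

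Of 21 cytosolic chaperones, 18 were higher and none was lower, with a median of 0.78. Of all tested genes 30.2% were higher and 29.8% lower. HSP90AB1 and HSP90AA1, the cytosolic Hsp90 genes, rose by 1.54 and 1.51, and HSPA8, the constitutive Hsp70, by 1.42. CCT5, BAG3 and HSPA1A did not pass (log2 fold changes 0.03, 0.05 and 0.04). With library totals 16 of the 21 were higher and 1, CCT5, was lower, where 21.3% of all tested genes were higher and 40.7% lower. HSPD1 and HSPE1 moved in the direction of these genes, and HSPA9 moved opposite to HSPA8. Once length, GC and level were adjusted for, the median of these 21 genes was 0.42, with HSPD1 at 0.66 and HSPE1 at 1.44. Of 13 chaperones of the endoplasmic reticulum, 6 were higher and 3 lower, with a median of 0.08. PDIA4, a disulfide isomerase, rose by 0.91 and CALR, calreticulin, by 0.84, and DNAJB9, a J-domain protein, fell by 1.56. HYOU1 and HSPA5, Hsp70 proteins of that compartment, were lower as well (log2 fold changes -0.60 and -0.35). With library totals 5 of these 13 were higher and 5 lower, where 21.3% of all tested genes were higher and 40.7% lower.

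**Figure D5:**
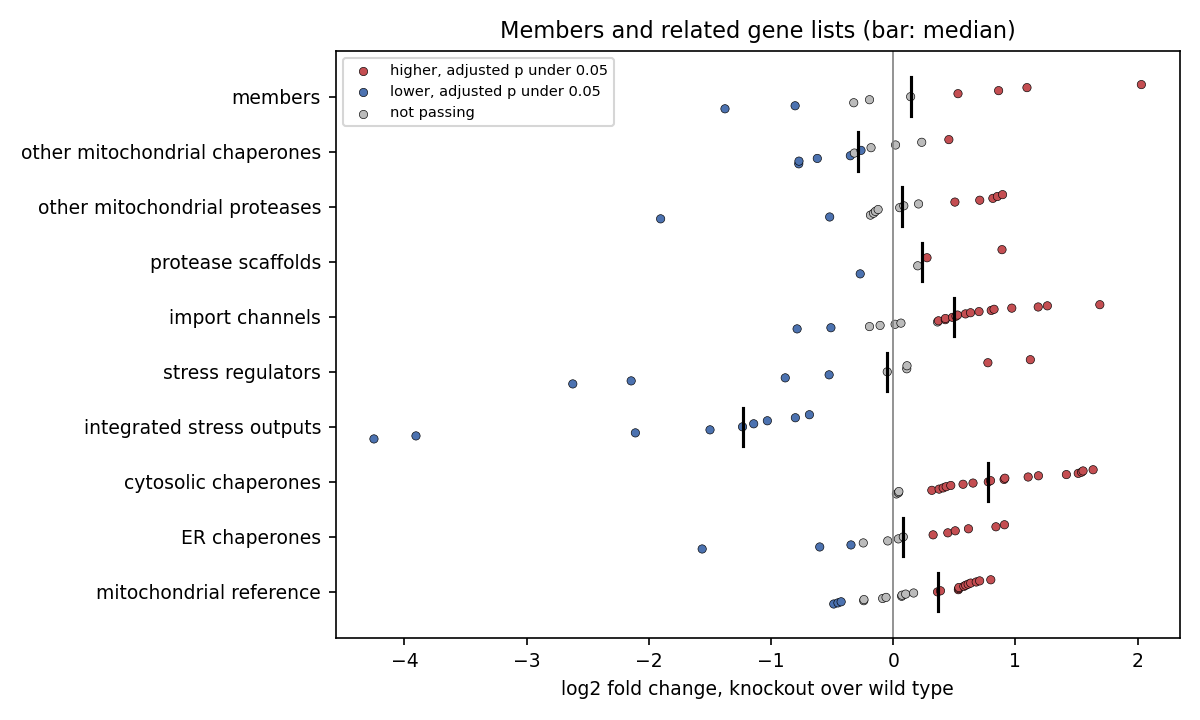
Log2 fold change of knockout over wild type (horizontal axis) for the tested genes of each list, with black bars at the medians; red points were higher and blue points lower at an adjusted p under 0.05, and grey points did not pass. The 9 mitochondrial chaperones and proteases spread from -1.38 to 2.03, the cytosolic chaperones lie at or above 0.03 and the integrated stress outputs all lie at or below -0.69.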

How the data were processed

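The authors deposited 1 table of raw counts of ribosome-protected fragments, 1 row per transcript and gene symbol, for 2 wild-type and 3 ZCCHC4 knockout libraries of HAP1 cells; the deposited counts are whole numbers with no normalization, which the values and header show. Per the labels' protocols, lysates were digested with RNase I, monosomes were taken from sucrose gradients and their fragments cloned. The molecule is labelled polyA RNA although the protocol is for footprints. Per the submitters' processing notes, Bowtie and hg38 were used. Not given in the sources used here are the Bowtie version, counting tool, annotation, strand use, duplicate removal and the handling of multi-mapping reads. The header was 1 cell short, and columns were assigned by name after that shift.

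Samples were grouped by the genotype in their titles. Of 13638 rows, 13533 matched GENCODE 29 (GRCh38) by transcript, which gave coordinates, coding length and GC content. edgeR 4.0.16 (filterByExpr with a minimum count of 10, TMM, quasi-likelihood test, Benjamini-Hochberg adjustment) was fitted on all 5 libraries; 11205 rows were tested and 2433 left out. A single count was worth 0.172 and 0.187 CPM in wild type and 0.0339 to 0.0619 CPM in the knockout, and 3 counts, the limit a count of 0 allows, 0.102 to 0.560 CPM; both cover counting error only. Ratios of partners were tested by exact permutation over libraries. GC content, coding length and level were fitted with natural splines of 4 degrees of freedom. Promoters came from RefSeq. Alternatives were RLE, upper-quartile and library-total scaling, other count filters, DESeq2 1.42.0, voom of limma 3.58.1, thinned knockout libraries, summed wild-type libraries, a replicate block and each library left out; the fit on GC content alone was added after seeing the data. Scripts were tested on simulated data.

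The 10 genes, all gene lists and the tests were chosen with earlier results of these data known. Named by rule beside the 10 genes were in each list up to 3 genes, those of smallest adjusted p. ATF4, ATF5, DDIT3, HSF1, ZCCHC4, genes flanking the 10 genes and cell type markers were added. Further list genes, some of which did not pass, were named outside this rule with the results known.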

Additional observations from a re-analysis of the deposited data

How the results depend on the processing

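HSPE1, HSPD1, GRPEL1, CLPX, HSPA9 and LONP1 kept their direction under every alternative run and their call under every alternative with a test, the highest adjusted p being 0.0371 (CLPX, edgeR and the other tools). The log2 fold change ranged from 1.44 to 2.09 for HSPE1, 0.66 to 1.15 for HSPD1, 0.56 to 0.95 for GRPEL1, 0.31 to 0.61 for CLPX, -1.07 to -0.76 for HSPA9 and -1.59 to -1.12 for LONP1. With library totals 4 of the 9 genes were lower, TRAP1 (log2 fold change -0.41, adjusted p = 0.00420 by edgeR) and CLPP (-0.54, 0.0153) added, beside 40.7% of all tested genes lower, and the median of the 9 and YME1L1 were -0.077. After the spline fit on length, GC and level the median and YME1L1 were at -0.12. TRAP1 also passed with upper-quartile scaling (adjusted p = 0.0467), with only genes of mean count 50 or more (0.0311) and with thinned knockout libraries (0.0445), all by edgeR. Leaving out each library in turn gave 4 or 5 genes higher and 2 to 4 lower, a median of 0.09 to 0.20, and log2 ratio differences of 0.92 to 0.96 (HSPE1 to HSPD1), 1.64 to 1.69 (GRPEL1 to HSPA9), 0.72 to 1.09 (CLPX to CLPP) and -1.14 to -0.96 (LONP1 to CLPP); the counts of 5 and 4 came without knockout replicate 2.

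Whether the replicate numbers pair the libraries is not given by the labels. Same-numbered deviations from the group means correlated at -0.0855 and -0.0806. The deviations of the 2 wild-type libraries mirror each other, so these values cannot exclude a pairing. With a replicate block on replicates 1 and 2, which leaves out knockout replicate 3, 2991 genes were higher and 3006 lower, against 3380 and 3341, and 4 and 2 of the 9 genes. Among the 4 scaffolds, 1 was higher and none lower with the block. Among the 9 genes CLPP had the fewest counts and the widest error (SE 0.15), which was 0.08 without knockout replicate 2. Where an alternative left an arm with 1 library, that library was assumed to vary like the others.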
